A study of Mus musculus with 12 samples.

Results

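Expression of 10 genes of the NRF2 antioxidant and iron response was followed in mouse RAW264.7 macrophages, unmodified at or knocked out for the transcription factors TFEB and TFE3, without and with a DNA-damaging drug. The 10 genes are Nfe2l2, which encodes NRF2, its inhibitor Keap1, and Gclc, Gclm, Txnrd1, Srxn1, Nqo1, Hmox1, Fth1 and Slc40a1. They were looked up by gene symbol in a table of 32688 genes, and all 10 were among the 18066 genes with enough counts to be tested. The set was chosen with earlier results of these data known. RAW264.7 is a macrophage line from mouse, and its RNA was sequenced in 12 libraries, 3 in each of 4 groups. Null cells carried neither deletion, and TFEB/TFE3 DKO cells were RAW264.7 cells in which CRISPR had been used to knock out both genes. Control cells of each genotype are called untreated in the labels, while DMSO is named in the methods, and the other cells of each genotype received 100 µM etoposide, a topoisomerase II poison that causes DNA breaks, for 8 h. Each genotype is 1 line, and whether it is a clone is not given in the sources used here, so a difference between the genotypes cannot be told apart from a difference between these lines. The titles of the 3 DKO etoposide libraries also carry the word MEFs, although every other label gives RAW264.7. These titles name TFEB/TFE3 but lack the word DKO that the titles of the DKO control libraries hold.

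NRF2 is a transcription factor that KEAP1 holds in the cytosol and passes to a CUL3 ubiquitin ligase for degradation. Oxidants and electrophiles modify KEAP1, and NRF2 then accumulates in the nucleus, pairs with small MAF proteins and binds antioxidant response elements near genes for glutathione synthesis, thioredoxin reduction, quinone detoxification and iron storage and export. In macrophages this programme is known for buffering the oxidative burst and for handling the heme and iron released from engulfed red cells.

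The antioxidant response element is the DNA sequence through which NRF2 acts, so the starts of the 10 genes were searched for its core, TGACNNNGC, and for the E-box TCACGTG that TFEB and TFE3 recognise, both on either strand. The patterns can share bases, but no window of these genes held both. RefSeq promoter windows (GRCm38.p6), which run from 250 bases before to 50 bases after a start, were given for 7 of the 10 genes, in 10 windows, and none was given for Hmox1, Gclc or Slc40a1. The core was found in 4 of these 10 windows, each of a different gene, and in 12.4% of all 32851 windows searched. Counted by gene instead of by window, 4 of the 7 genes held the core. In a list of other NRF2 targets described further on, 6 of 22 genes with 27 windows held it. A share by gene over all genes was not computed. The E-box was found in none of the 10 windows and in 3.77% of all windows. The 4 matches follow with 10 flanking bases on each side, read along the strand of the gene, with the match in capitals. A match written as GC...TCA is the core read from the opposite strand.
Nfe2l2, 240 bases before the start: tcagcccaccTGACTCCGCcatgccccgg
Gclm, 134 bases before the start: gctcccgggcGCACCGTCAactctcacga
Txnrd1, 92 bases before an internal start: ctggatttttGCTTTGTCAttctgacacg
Srxn1, 28 bases after the start: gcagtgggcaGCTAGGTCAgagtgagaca

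The longer upstream stretches of Gclm and Txnrd1, both higher in DKO cells at each condition as described further on, place their matches in context. The Gclm stretch is the 250 bases directly before the start (chr3:122245307-122245556, plus strand). That of Txnrd1 covers 170 bases upstream of the internal start, within the gene (chr10:82859009-82859178, plus strand). Capitals again mark the core. A match is a pattern of letters, and binding was not measured.
Gclm: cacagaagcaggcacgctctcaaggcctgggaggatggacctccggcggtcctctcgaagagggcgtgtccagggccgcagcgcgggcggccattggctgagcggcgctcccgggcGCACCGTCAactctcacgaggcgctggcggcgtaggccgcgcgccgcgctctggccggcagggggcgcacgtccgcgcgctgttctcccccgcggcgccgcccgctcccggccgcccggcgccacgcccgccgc
Txnrd1: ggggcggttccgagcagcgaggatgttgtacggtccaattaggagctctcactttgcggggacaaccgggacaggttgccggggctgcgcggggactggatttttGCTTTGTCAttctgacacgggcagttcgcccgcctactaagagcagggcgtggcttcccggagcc

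Libraries held 29837255 to 61809316 counts, of which the 10 genes together took 0.0891% to 0.170%. Mitochondrial transcripts took 19.4% to 21.7% of counts in Null etoposide libraries and 14.1% to 18.3% in the others. With library sizes set without these transcripts, 8 of the 10 genes were again called higher in DKO control cells, a comparison without Null etoposide libraries. In the comparisons with Null etoposide libraries, too, no call or direction of the 10 genes changed. Replicate 1 of DKO control stood apart from its group, with a median squared difference over genes of 45.6 and 54.7 times that expected from counting alone against replicates 2 and 3, which differed by 6.46 times. For replicate 1 of Null control these were 14.5 and 36.8 times, against 11.4 times between the others, and leaving out either library left 8 of the 10 genes higher in DKO control cells. In the DKO etoposide group replicates 2 and 3 differed by 23.4 times, and replicate 1 differed from them by 8.14 and 11.3 times. Tfeb lay between 16.6 and 17.2 CPM (counts scaled to library size) in Null control and between 3.14 and 5.24 CPM in DKO control libraries, and Tfe3 between 89.4 and 119 CPM over all Null and between 31.5 and 42.5 CPM over all DKO libraries, so transcripts of both targeted genes were lower (both called by limma-trend) but present in DKO cells. All 8 macrophage markers examined had counts in every group, with a summed level of 4191 to 5130 CPM per library, although 2 of the 8 were called higher and 4 lower in DKO control cells and 2 higher and 2 lower after etoposide, where 10.9% and 8.4% and then 15.9% and 17.8% of all genes were called. The Fc receptor gene Fcgr1 differed most after etoposide, with means of 37 CPM for Null and 5.12 CPM for DKO (limma-trend, adjusted p = 7.25e-11). Of 8 fibroblast markers, examined because of the word MEFs, the summed level was 1.01 to 1.20 CPM in DKO etoposide, 1.91 to 2.03 CPM in Null etoposide, 0.646 to 0.927 CPM in Null control and 0.152 to 0.263 CPM in DKO control libraries, and no single marker exceeded 1.38 CPM. The collagen gene Col1a1 did not exceed 0.135 CPM in any of the 12 libraries. The part of these markers in the results was not tested.

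Most of the 10 genes were higher in DKO than in Null cells, and this held with and without etoposide. In control cells 8 genes were called higher in DKO at an adjusted p under 0.05 and none lower, in a comparison where 10.9% of all genes tested were called higher and 8.4% lower. After etoposide 9 were called higher and none lower, against 15.9% and 17.8% of all genes. Scaled by library size alone, the control comparison called 1579 genes higher and 2057 lower in DKO, against 1974 and 1517 with the scaling used here, and 8 of the 10 genes were higher under both. Without DKO control replicate 1, 2290 genes were called lower. The 8 called in control cells were called after etoposide too, and 7.68% of all genes tested were higher in both. The median log2 difference of the 10 genes, DKO minus Null, was 0.87 in control cells and 0.97 after etoposide, whereas the median over all genes was -0.00088 and -0.012. The libraries of the groups did not overlap for 8 of the 10 genes in control cells, all 8 with DKO higher, and for all 10 after etoposide, shares to be read against 14.3% and 27.5% of all genes tested. For 7 genes (Keap1, Gclc, Gclm, Txnrd1, Srxn1, Nqo1 and Slc40a1) every one of the 6 DKO libraries lay above every one of the 6 Null libraries, which was so for 5.41% of all genes. The genes were chosen with earlier results of these data known, so these counts describe the set and are no independent evidence of its direction. As RNA came from whole cultures, more RNA per cell and more cells expressing a gene cannot be told apart.

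**Figure D1:**
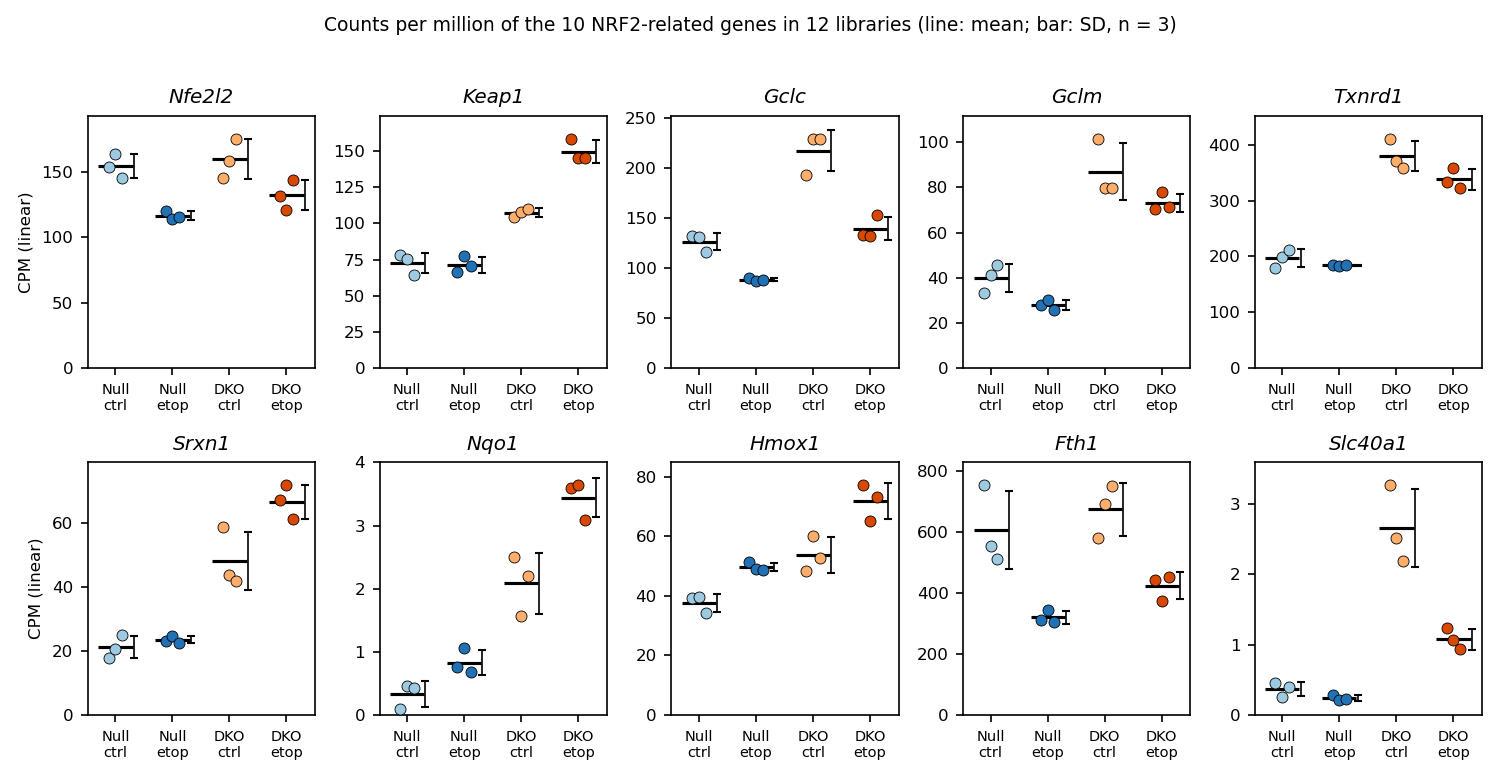
Level of each of the 10 genes in the 12 libraries, in CPM on a linear axis from 0, with Null control, Null etoposide, DKO control and DKO etoposide from left to right. Points are libraries, lines are means and bars are SD (n = 3), and in 7 panels all 6 orange DKO points lie above all 6 blue Null points.

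Nfe2l2, the gene for NRF2 itself (ENSMUSG00000015839.6, chromosome 2, 75675513 to 75704641, minus strand), differed little between the genotypes. It was at 154, 164 and 146 CPM in the 3 Null control libraries and at 120.3, 114 and 115 CPM in the 3 Null etoposide libraries. DKO libraries had 145, 158 and 175 CPM as controls and 132, 121 and 144 CPM after etoposide. Control libraries of the genotypes overlapped, while after etoposide the lowest DKO library stood just above the highest Null library. The log2 difference, DKO minus Null, was 0.047 in control cells (95% interval -0.14 to 0.24) and 0.18 after etoposide (95% interval -0.012 to 0.37), and neither was called (limma-trend, adjusted p = 0.79 and 0.141). Nfe2l2 fell with etoposide in both genotypes. On the log2 scale it fell by 0.40 ± 0.088 (SE) in Null cells (limma-trend, adjusted p = 0.00287) and by 0.27 ± 0.088 in DKO cells (limma-trend, adjusted p = 0.0272). The smaller DKO change lost its call when any of 4 libraries was left out, with adjusted p = 0.072 and 0.11 without DKO control replicates 2 and 3 and 0.0859 and 0.139 without DKO etoposide replicates 1 and 2 (limma-trend).

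Keap1 encodes the inhibitor (ENSMUSG00000003308.14, chromosome 9, 21229730 to 21239361, minus strand). Of the 10 genes, it alone had a called difference between the genotypes in its response to etoposide. In Null cells it was at 78, 75.5 and 64.6 CPM without and 66.3, 77.2 and 70.3 CPM with etoposide, and these libraries overlapped. DKO cells had 104, 108 and 110.1 CPM as controls and 158, 145 and 145 CPM after etoposide, with every treated library above every control. Etoposide left a log2 difference of -0.027 in Null cells (95% interval -0.21 to 0.16; limma-trend, adjusted p = 0.838), whereas Keap1 rose by 0.47 ± 0.085 in DKO cells (limma-trend, adjusted p = 0.000751). The difference between these responses, which is the interaction term, was 0.50 ± 0.12 (limma-trend, adjusted p = 0.0194). Over all genes 3.07% were called with a higher and 6.39% with a lower response in DKO cells. In either direction 1708 of the 18066 genes tested were called, so 1 call among 10 genes is near the share of all genes. For the other 9 genes a missing call does not show that the responses were alike. The 554 genes with a higher response became 350 without Null etoposide replicate 3 and 368 without Null control replicate 2. The Keap1 interaction was no longer called without Null control replicate 2 (adjusted p = 0.0604), Null etoposide replicate 1 (adjusted p = 0.051) or Null etoposide replicate 3 (adjusted p = 0.0583), while its log2 value stayed between 0.45 and 0.58 over the 12 fits that each left out 1 library. Between genotypes Keap1 was 1.48-fold higher in DKO control cells (limma-trend, adjusted p = 0.000353) and 2.1-fold higher after etoposide (limma-trend, adjusted p = 9.19e-07). The strand setting of the counting is not given in the sources used here, and 510 exon bases of Keap1 overlap the antisense gene Gm16754. If reads lay evenly along Gm16754, those over the shared bases would amount to 8.51% of the Keap1 counts. This is an estimate and not an upper limit, as Gm16754 had 26995 counts against 61942 of Keap1.

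The glutathione pair Gclc and Gclm was higher in DKO cells, and after etoposide Gclc was called lower in both genotypes and Gclm in Null cells. Gclc (ENSMUSG00000032350.8, chromosome 9, 77754535 to 77794485, plus strand) encodes the catalytic subunit of glutamate-cysteine ligase, the rate-limiting enzyme of glutathione synthesis. Its level was 132, 131 and 117 CPM in Null control and 194, 229.5 and 229.5 CPM in DKO control libraries. After etoposide it was 90, 87 and 87.9 CPM in Null and 133, 133 and 153 CPM in DKO libraries. The groups were separate in each of these comparisons, and the treated DKO level came close to that of untreated Null cells. DKO cells held 1.72-fold more Gclc as controls (limma-trend, adjusted p = 3.37e-05) and 1.58-fold more after etoposide (limma-trend, adjusted p = 8.82e-05). With etoposide Gclc fell by 0.52 ± 0.088 on the log2 scale in Null cells (limma-trend, adjusted p = 0.000496) and by 0.64 ± 0.088 in DKO cells (limma-trend, adjusted p = 9.23e-05).

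Gclm (ENSMUSG00000028124.15, chromosome 3, 122245557 to 122270732, plus strand), the modifier subunit of the same enzyme and the gene with the upstream core printed above, was also separate between genotypes. Null control libraries had 33.4, 41.4 and 45.5 CPM and DKO control libraries 102, 79.7 and 79.7 CPM. Treated libraries had 27.9, 30.3 and 25.9 CPM in Null and 70.6, 77.8 and 71.4 CPM in DKO cells. The lowest DKO library, at 70.6 CPM, was above the highest Null library, at 45.5 CPM. Gclm was 2.17-fold higher in DKO control cells (limma-trend, adjusted p = 2.97e-05) and 2.62-fold higher after etoposide (limma-trend, adjusted p = 2.61e-06). It fell by 0.51 ± 0.12 on the log2 scale with etoposide in Null cells (limma-trend, adjusted p = 0.00594). In DKO cells the log2 difference with etoposide was -0.24 (95% interval -0.51 to 0.031) and was not called (limma-trend, adjusted p = 0.151), and the interaction of 0.27 was not called either (limma-trend, adjusted p = 0.455). Gclm shares exon bases with Gm17494 and Gm6061. If reads lay evenly along these 2 genes, those over the shared bases would amount to 0.0831% and 0.465% of the Gclm counts. The 2 genes had 828 and 328 counts in all, against 35023 of Gclm.

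The thioredoxin genes Txnrd1 and Srxn1 were higher in DKO cells at each condition. Txnrd1 (ENSMUSG00000020250.9, chromosome 10, 82833951 to 82897712, plus strand), the cytosolic thioredoxin reductase, was at 179, 199 and 212 CPM in Null control and 184, 184 and 184 CPM in Null etoposide libraries. DKO cells had 410.5, 371 and 359 CPM of Txnrd1 as controls and 333, 358 and 322 CPM after etoposide. Between genotypes the libraries were far apart, and within the Null cells the treated and untreated libraries overlapped. Within the DKO cells the highest treated library, at 358.3 CPM, stood just below the lowest control library, at 358.7 CPM. Txnrd1 was 1.94-fold higher in DKO than in Null control cells (limma-trend, adjusted p = 2.5e-06) and 1.83-fold higher after etoposide (limma-trend, adjusted p = 3.24e-06). Its log2 response to etoposide was -0.091 in Null cells (95% interval -0.27 to 0.084) and -0.17 in DKO cells (95% interval -0.34 to 0.0061), neither of which was called (limma-trend, adjusted p = 0.407 and 0.119).

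Srxn1 (ENSMUSG00000032802.8, chromosome 2, 152105516 to 152111376, plus strand) encodes sulfiredoxin, which restores over-oxidised peroxiredoxins. In Null cells Srxn1 was at 17.9, 20.8 and 25 CPM without and 23.2, 24.7 and 22.6 CPM with etoposide, which overlapped. In DKO cells Srxn1 was at 58.7, 43.9 and 42 CPM without and 67.1, 71.8 and 61.1 CPM with etoposide, which did not. Both DKO groups lay above both Null groups. The gap was 2.26-fold in control cells (limma-trend, adjusted p = 4.95e-05) and 2.83-fold after etoposide (limma-trend, adjusted p = 3.64e-06). Etoposide raised Srxn1 by 0.48 ± 0.14 on the log2 scale in DKO cells (limma-trend, adjusted p = 0.0152), a call that was lost without DKO control replicate 2 (adjusted p = 0.0554), DKO control replicate 3 (adjusted p = 0.0645) or DKO etoposide replicate 2 (adjusted p = 0.0535). In Null cells the log2 difference was 0.16 (95% interval -0.14 to 0.46; limma-trend, adjusted p = 0.405). The interaction of 0.32 ± 0.20 missed the threshold (limma-trend, adjusted p = 0.411), so a difference between the responses was not shown.

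Nqo1, which encodes a quinone reductase and is widely used as a readout of NRF2 activity (ENSMUSG00000003849.8, chromosome 8, 107388225 to 107403206, minus strand), was scarce in these cells. Null libraries had 0.0972, 0.464 and 0.433 CPM as controls, from 3, 23 and 21 counts, and 0.757, 1.06 and 0.675 CPM after etoposide. DKO libraries had 2.5, 1.56 and 2.19 CPM as controls and 3.6, 3.64 and 3.09 CPM after etoposide. The 4 groups did not overlap and stood in the order Null control, Null etoposide, DKO control, DKO etoposide. Relative to Null cells Nqo1 was 6.14-fold higher in DKO control cells (limma-trend, adjusted p = 0.000326) and 3.99-fold higher after etoposide (limma-trend, adjusted p = 0.00161). It rose by 1.35 ± 0.39 on the log2 scale with etoposide in Null cells (limma-trend, adjusted p = 0.015). This rise was 0.79 without Null control replicate 1, the library with 3 counts, where it was still called, and it lost its call without Null etoposide replicate 2 (adjusted p = 0.065). In DKO cells the log2 difference of 0.73 (95% interval -0.12 to 1.58) was not called (limma-trend, adjusted p = 0.163), although without Null control replicate 1 it was (adjusted p = 0.0163).

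Hmox1 (ENSMUSG00000005413.8, chromosome 8, 75093621 to 75100589, plus strand) encodes heme oxygenase 1, which breaks heme down to biliverdin, carbon monoxide and iron. It was higher in DKO cells and after etoposide. Its levels were 39.2, 39.8 and 34.2 CPM in Null control and 51.4, 49 and 48.7 CPM in Null etoposide libraries. DKO control libraries had 48.4, 60.2 and 52.7 CPM of Hmox1 and DKO etoposide libraries 77.1, 65.3 and 73.3 CPM. Null control was lowest and DKO etoposide highest, while the Null etoposide and DKO control libraries in between overlapped. Etoposide raised Hmox1 1.32-fold in Null cells (limma-trend, adjusted p = 0.00536) and 1.34-fold in DKO cells (limma-trend, adjusted p = 0.00385). DKO exceeded Null cells 1.42-fold without (limma-trend, adjusted p = 0.00206) and 1.44-fold with etoposide (limma-trend, adjusted p = 0.000957). The interaction was 0.021 on the log2 scale (95% interval -0.27 to 0.32; limma-trend, adjusted p = 0.963).

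**Figure D2:**
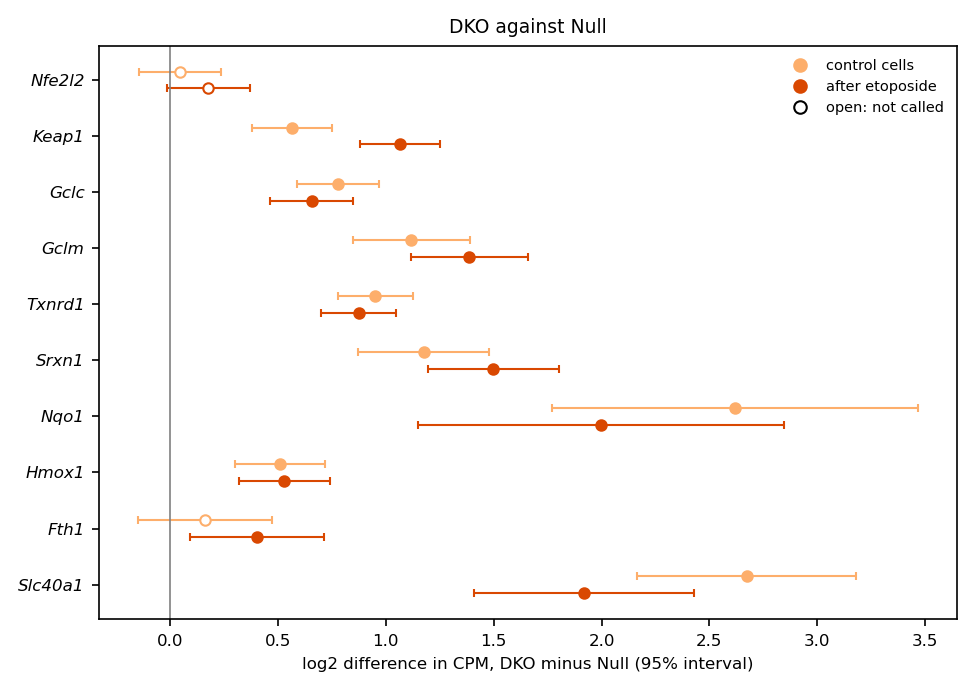
Log2 difference in CPM between DKO and Null cells for each of the 10 genes, in control cells and after etoposide, with 95% intervals from limma-trend and open symbols where the difference was not called. All points lie to the right of 0, with Slc40a1 and Nqo1 farthest and Nfe2l2 nearest to it.

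Fth1 and Slc40a1 are the iron storage and export genes of the set, and etoposide lowered Fth1 in both genotypes and Slc40a1 in DKO cells. Fth1 (ENSMUSG00000024661.6, chromosome 19, 9980598 to 9985098, plus strand) encodes the ferritin heavy chain, the subunit that oxidises iron for storage. Null libraries had 754, 556 and 514 CPM of Fth1 as controls and 310.4, 344 and 307 CPM after etoposide. The DKO values of Fth1 were 580.5, 692 and 752 CPM in control and 445, 375 and 455 CPM in etoposide libraries. Treated and untreated libraries were separate in both genotypes, whereas the control libraries of the genotypes overlapped. Fth1 fell by 0.91 ± 0.14 on the log2 scale in Null cells (limma-trend, adjusted p = 0.00028), the deepest called fall of the 10 genes there, and by 0.67 ± 0.14 in DKO cells (limma-trend, adjusted p = 0.00254). Between genotypes the log2 difference was 0.16 in control cells (95% interval -0.15 to 0.47; limma-trend, adjusted p = 0.512). After etoposide Fth1 was 1.32-fold higher in DKO cells at the edge of the threshold (limma-trend, adjusted p = 0.0456). That call was lost without any one of 7 libraries, at adjusted p from 0.0579 without Null control replicate 2 to 0.138 without DKO etoposide replicate 3, the others being DKO control replicate 2, the 3 Null etoposide libraries and DKO etoposide replicate 1. One other gene is at least 95% identical to Fth1 over 150 bases or more, and it had 90 counts against 295976 of Fth1.

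Slc40a1 (ENSMUSG00000025993.10, chromosome 1, 45908068 to 45926523, minus strand) encodes ferroportin, the iron exporter of the cell membrane. It was the scarcest of the 10 genes per length, and in control cells its log2 difference between genotypes, 2.67 ± 0.23, was close to the 2.62 ± 0.39 of Nqo1. Null control libraries had 0.454, 0.262 and 0.392 CPM, from 46 counts in all, and Null etoposide libraries 0.286, 0.208 and 0.232 CPM from 40 counts. In DKO cells Slc40a1 was at 3.27, 2.51 and 2.19 CPM before and 1.24, 1.07 and 0.937 CPM after etoposide, from 386 and 186 counts. The DKO control libraries were highest, the DKO etoposide libraries intermediate, and the Null groups, which overlapped, lowest. Slc40a1 was 6.38-fold higher in DKO control cells (limma-trend, adjusted p = 3.42e-06) and 3.78-fold higher after etoposide (limma-trend, adjusted p = 3.98e-05). It dropped by 1.24 ± 0.23 on the log2 scale with etoposide in DKO cells (limma-trend, adjusted p = 0.00103). In Null cells the log2 difference of -0.49 (95% interval -0.998 to 0.018) was not called (limma-trend, adjusted p = 0.118), except without Null control replicate 2, where it was -0.68 (adjusted p = 0.0454). The interaction of -0.75 ± 0.33 was not called (limma-trend, adjusted p = 0.214).

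With etoposide, calls among the 10 genes went both ways. In Null cells 2 of the 10 genes were called higher (Hmox1 and Nqo1) and 4 lower (Nfe2l2, Gclc, Gclm and Fth1), where 20.9% and 18.7% of all genes were called higher and lower. DKO cells had 3 called higher (Keap1, Srxn1 and Hmox1) and 4 lower (Nfe2l2, Gclc, Fth1 and Slc40a1), against 20.2% and 19.1% of all genes. The counts called higher were at or near those shares. The median log2 response of the 10 genes was -0.25 in Null and -0.20 in DKO cells, and that of all genes 0.026 and 0.029. Hmox1 was called higher, and Nfe2l2, Gclc and Fth1 lower, in both genotypes. The interaction was called for Keap1 and for none of the other 9 genes by limma-trend, whose unadjusted p was under 0.05 for 1 of these 9, Slc40a1, at 0.0412. The edgeR and DESeq2 tests also called 1 of the 10.

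**Figure D3:**
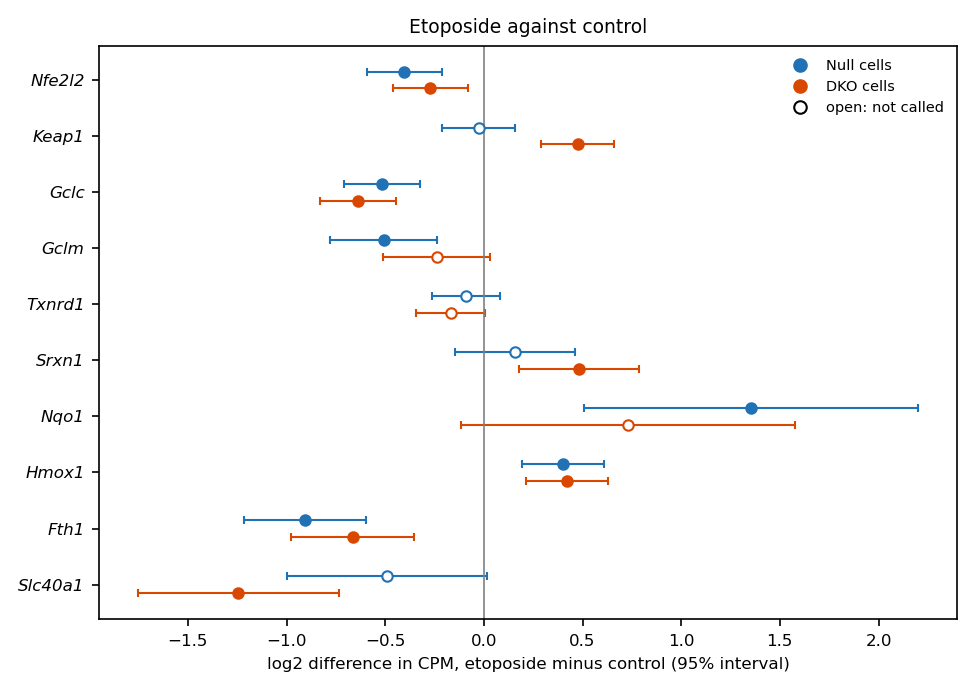
Log2 difference in CPM between etoposide and control cells for each of the 10 genes, in Null and in DKO cells, with 95% intervals from limma-trend and open symbols where the difference was not called. Points fall on both sides of 0, and Keap1 is the gene whose Null and DKO intervals lie apart.

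Per length of exon sequence, Fth1 was the most abundant of the 10 genes at a mean of 146 CPM per kilobase over the 12 libraries. Txnrd1, Gclc and Nfe2l2 followed at 38.8, 38.0 and 37.1 CPM per kilobase, close enough that their order changed with the group. Nfe2l2 led these 3 in Null control cells at 40.6 CPM per kilobase, against 33.6 for Gclc and 27.7 for Txnrd1, and Gclc led in DKO control cells at 57.8, against 53.6 for Txnrd1 and 42.1 for Nfe2l2. Hmox1, Keap1, Srxn1 and Gclm came next at 30.4, 21.4, 14.2 and 9.07 CPM per kilobase. After etoposide Hmox1 stood among the 3 genes before it, at 28.4 CPM per kilobase in Null cells, above Txnrd1 at 26.0 and Gclc at 23.4, and at 41.1 in DKO cells, above Gclc at 37.0 and Nfe2l2 at 34.8. Nqo1 and Slc40a1 were lowest at 1.08 and 0.121 CPM per kilobase. Lengths are the union of all annotated exons of a gene, which lowers these levels for genes with long rare exons.

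A list of 25 other NRF2 target genes was also mostly higher in DKO cells. It was written from general knowledge but, like the 10 genes, with earlier results of these data known. Its counts therefore describe the list and are no independent evidence of its direction. Of the 23 that could be tested, 15 were called higher in DKO control cells and 17 after etoposide, none was called lower in either, and 15 were higher in both, where 10.9%, 15.9% and 7.68% of all genes were called higher. Their median log2 difference was 0.80 in control cells and 0.88 after etoposide. The furthest apart was Akr1b8, an aldo-keto reductase, at 28.4, 25.8 and 24.9 CPM in Null control and 231, 261 and 267 CPM in DKO control libraries, a 9.57-fold difference (limma-trend, adjusted p = 1.27e-10). Gstm1, a glutathione S-transferase, was 6.83-fold higher in DKO control cells (limma-trend, adjusted p = 5.86e-08) and 5.29-fold higher after etoposide (limma-trend, adjusted p = 1.21e-07). Akr1b8 and Gstm1 belong to families of similar genes, and reads shared with such copies were not examined. With etoposide 6 of the 23 were called higher and 4 lower in Null cells, and 6 higher and 1 lower in DKO cells, against 20.9% and 18.7% of all genes in Null and 20.2% and 19.1% in DKO cells. Over the alternative settings other than a minimum fold, 14 to 17 were higher and 0 to 1 lower in control cells, and 15 to 19 were higher and 0 lower after etoposide.

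**Figure D4:**
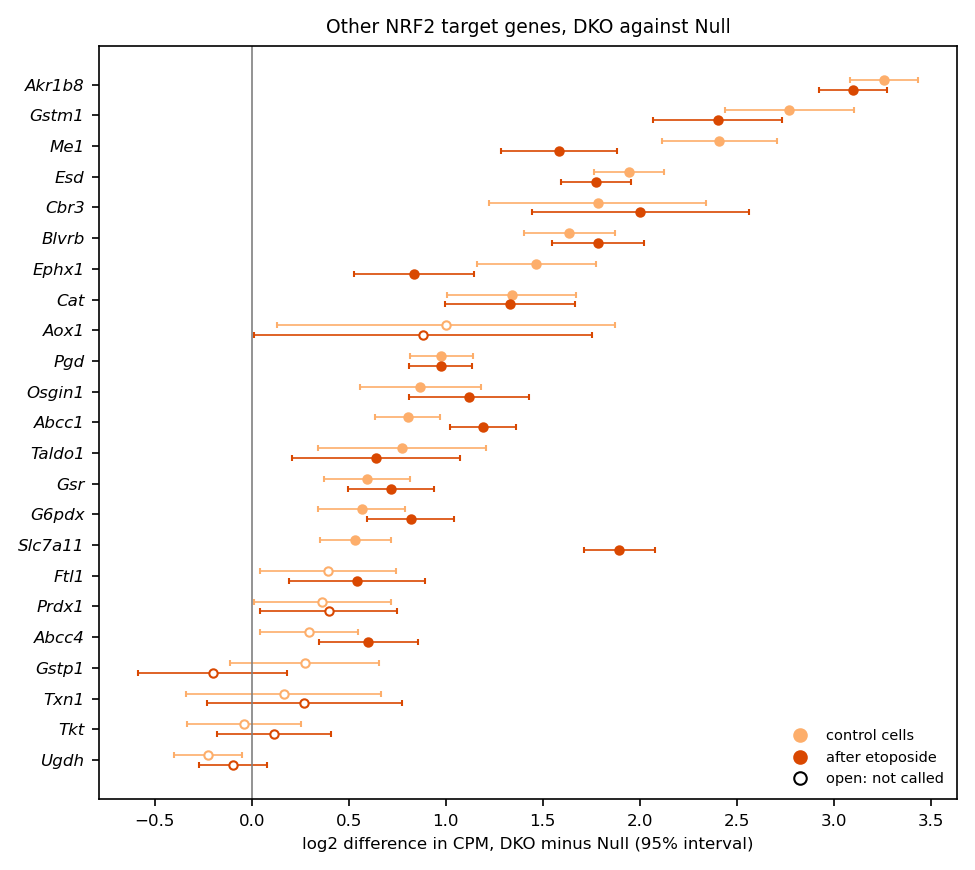
Log2 difference in CPM between DKO and Null cells for the 23 tested genes of the list of other NRF2 targets, ordered by the difference in control cells, with 95% intervals from limma-trend and open symbols where it was not called. The filled points all lie to the right of 0, from Akr1b8 at the top downwards.

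Slc7a11, the cystine importer that feeds glutathione synthesis, had the largest called interaction of this list. Null cells had 102, 93.7 and 107 CPM without and 31.2, 27.2 and 31.8 CPM with etoposide, and DKO cells 141, 146 and 152 CPM and 102, 118 and 115 CPM. It fell by 1.75 ± 0.084 on the log2 scale in Null cells (limma-trend, adjusted p = 1.54e-08) and by 0.39 ± 0.084 in DKO cells (limma-trend, adjusted p = 0.00287), an interaction of 1.36 ± 0.12 (limma-trend, adjusted p = 9.56e-06). With the drug, Slc7a11 was 3.72-fold higher in DKO cells (limma-trend, adjusted p = 4.35e-09). Ephx1, the microsomal epoxide hydrolase, rose most with etoposide in this list, 21.7-fold in Null cells (limma-trend, adjusted p = 4.59e-10) and 14-fold in DKO cells (limma-trend, adjusted p = 6.19e-10).

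For genes that control or accompany NRF2 protein, and for the lists after them, counts are to be read against 10.9% of all genes higher and 8.4% lower in DKO control cells, and 15.9% higher and 17.8% lower after etoposide. Of 11 such control and partner genes, 3 were called higher and 1 lower in DKO control cells, and 5 higher and 2 lower after etoposide, so the lower counts were near those shares. Over the same alternatives 1 to 4 were higher and 1 lower in control cells, and 4 to 5 were higher and 1 to 3 lower after etoposide. Sqstm1, the autophagy receptor p62 that can sequester KEAP1, was at 277, 305 and 320.5 CPM in Null control and 618, 534 and 509.9 CPM in DKO control libraries, 1.84-fold higher in the latter (limma-trend, adjusted p = 1.17e-05). Rbx1, a subunit of the CUL3 ligase, was 1.77-fold lower in DKO control cells (limma-trend, adjusted p = 1.31e-05) and 1.43-fold lower after etoposide (limma-trend, adjusted p = 0.000403). Bach1, a repressor that competes with NRF2 at Hmox1, fell with etoposide by 0.74 ± 0.093 on the log2 scale in Null cells (limma-trend, adjusted p = 5.1e-05) and by 0.53 ± 0.093 in DKO cells (limma-trend, adjusted p = 0.000682). Between genotypes Bach1 was 1.22-fold higher in DKO control cells (limma-trend, adjusted p = 0.0465), a call lost under most alternatives, and 1.41-fold higher after etoposide (limma-trend, adjusted p = 0.00117).

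Iron, glutathione, thioredoxin and NADPH oxidase genes made up the remaining lists, where several counts were near the shares of all genes just given. Among 18 tested genes of iron and heme handling beside Fth1, Slc40a1 and Hmox1, 5 were called higher and 2 lower in DKO control cells, and 7 higher and 3 lower after etoposide, with the lower counts near those of all genes. The furthest fall was that of Cp, the copper ferroxidase ceruloplasmin, which was at 238, 193 and 189 CPM in Null control and 6.93, 7.36 and 9.7 CPM in DKO control libraries (limma-trend, adjusted p = 1.27e-10). Slc11a1, a metal transporter of phagosomes, was 2.32-fold higher in DKO control cells (limma-trend, adjusted p = 6.07e-06) and rose with etoposide 3.29-fold in Null cells (limma-trend, adjusted p = 1.88e-07) and 3.9-fold in DKO cells (limma-trend, adjusted p = 3.59e-08). Of 10 genes of glutathione use, 3 were higher and none lower in DKO control cells and 2 were higher and 3 lower after etoposide, and of 11 thioredoxin and peroxiredoxin genes 2 and 5 were higher and none was lower. The 2 glutathione genes higher after etoposide and the 2 thioredoxin genes higher in control cells are near the shares of all genes. After etoposide the alternatives gave 6 to 8 higher and 2 to 5 lower iron and heme genes, 2 higher and 1 to 4 lower glutathione genes, and 3 to 8 higher and 0 to 1 lower thioredoxin and peroxiredoxin genes. In control cells they gave 4 to 5 higher and 2 to 4 lower, 2 to 3 higher and 0 to 1 lower, and 1 to 3 higher and 0 to 1 lower in these lists. The 6 genes of the phagocyte NADPH oxidase, the source of the oxidative burst, had 4 called lower and none higher in DKO control cells, and 1 lower and none higher after etoposide, and over the alternatives 0 to 1 were higher in each and 3 to 4 and 1 lower. A count of 1 gene lower after etoposide is what the share of all genes gives. That gene was Cybb, the catalytic subunit of the oxidase, and its difference was large in both conditions. Cybb was at 1374, 1210.0 and 1109 CPM in Null control and 108, 159 and 162 CPM in DKO control libraries, 8.71-fold lower (limma-trend, adjusted p = 1.6e-08). With the drug its mean level was 742 CPM (Null) against 94.4 CPM (DKO). The log2 difference, DKO minus Null, was then -2.98 (limma-trend, adjusted p = 1.33e-08), close to the -3.12 of control cells.

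**Figure D5:**
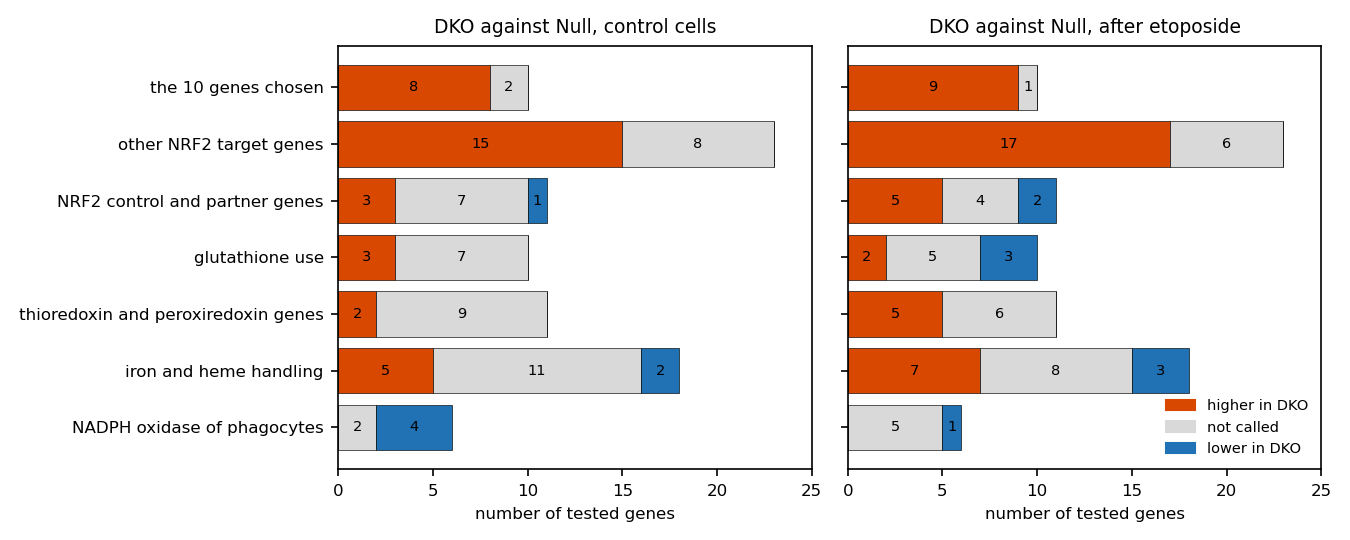
Number of tested genes called higher in DKO (orange), lower in DKO (blue) or not called (grey) in each gene list, in control cells and after etoposide. The 10 genes chosen and the other NRF2 targets are the lists with most of their bar in orange and none in blue in both panels.

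Genes whose 4 group means lay closest to those of Hmox1, Nqo1 and Slc40a1 were sought among all genes with a mean of at least 1 CPM, by the root mean square difference of the 4 centred means of log2 CPM. For Hmox1 they were Anxa7, Zfp28 and Dlat, at differences of 0.017, 0.022 and 0.023. For Nqo1 they were Maged2, Clstn3 and Flrt2, at 0.10, 0.14 and 0.20. For Slc40a1 they were Apbb2, Cacng8 and Ppp2r3a, at 0.25, 0.25 and 0.28. The differences were not scaled to how far the means of a gene spread, so they do not compare closeness between Hmox1, Nqo1 and Slc40a1. With 4 means to match, such likeness is a description over 4 groups of 3 libraries.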

How the data were processed

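Raw counts, 1 per gene and library, were deposited for 12 RAW264.7 libraries, 3 per group. According to the study's methods the authors aligned read pairs with HISAT2 and counted uniquely mapped pairs with HTSeq on a GENCODE annotation, while the submitters' processing notes name featureCounts and mm10; versions and the strand setting are not given in the sources used here. Labels name a pair of RNA kits without assigning them to libraries. Symbols, lengths and coordinates came from GENCODE M21 (GRCm38, the mm10 assembly), which held 99.4% of the 32688 identifiers.

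Here, the filterByExpr function (edgeR 4.0.16) retained 18066 genes holding 99.96% of counts. TMM factors (trimmed mean of M values) of 0.939 to 1.03 scaled the libraries, and log2 CPM (prior count 3) entered limma-trend (limma 3.58.1, R 4.3.3) with robust variance moderation, all 12 libraries in 1 model with a mean per group. P-values are two-sided, adjusted by Benjamini-Hochberg over all genes tested, and called under 0.05. The study calls its etoposide samples independent, but separate cultures are not stated, so p-values measure the spread between these samples. Printed CPM use TMM-scaled library sizes. Scripts were tested on simulated counts.

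Alternatives were other scalings, no filter, a prior count of 1, edgeR quasi-likelihood, DESeq2 1.42.0, a minimum log2 change of 1, fits of the 2 groups compared, a replicate block and leaving out each library.

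The 10 genes, the other lists and the motifs were chosen with earlier results of these data known. Of the other lists, named genes were at most the 2 furthest called in each direction per list and comparison with a mean of at least 1 CPM, plus Tfeb and Tfe3 and the nearest patterns. Col1a1 and the markers named for a difference were named after their values were seen.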

Additional observations from a re-analysis of the deposited data

Results flagged for a closer look

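The lists other than the cell type markers held 91 tested genes. For 13 of them limma-trend called an interaction, a difference between the DKO and Null responses to etoposide. These were 8 above and 5 below 0. Values are the DKO minus the Null response on the log2 scale ± SE, followed by the group means in CPM. Over all genes 3.07% had a called interaction above 0 and 6.39% one below 0. The cause of each was not tested.

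Of the 10 genes the interaction was called for Keap1 alone, at 0.50 ± 0.12 (limma-trend, adjusted p = 0.0194), with means of 72.7 and 71.3 CPM in Null and 107 and 149 CPM in DKO cells without and with etoposide.

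Among regulators Sqstm1 had -0.51 ± 0.12 (limma-trend, adjusted p = 0.0212), as 301 became 335 CPM in Null and 554 became 433 CPM in DKO cells. Btrc, a ligase subunit that also recognises NRF2, had 0.55 ± 0.15 (limma-trend, adjusted p = 0.0358), from 12.7 to 9.58 CPM in Null and from 14.5 to 16 CPM in DKO cells. Tfeb itself had 1.16 ± 0.22 (limma-trend, adjusted p = 0.00499), where Null means were 16.8 and 7.55 CPM and DKO means 4.4 and 4.34 CPM.

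Among the other targets Slc7a11 had 1.36 ± 0.12 (limma-trend, adjusted p = 9.56e-06). Me1, the malic enzyme that makes NADPH, had -0.83 ± 0.19 (limma-trend, adjusted p = 0.0168), from 4.78 to 10.8 CPM in Null and from 25.2 to 32.5 CPM in DKO cells. The exporter Abcc1 had 0.39 ± 0.11 (limma-trend, adjusted p = 0.0447), from 148 to 109 CPM in Null and from 259.7 to 248 CPM in DKO cells.

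In glutathione use the interaction was -2.15 ± 0.25 for Chac1, a glutathione-degrading enzyme (limma-trend, adjusted p = 0.000118), whose DKO level went from 14.6 to 0.776 CPM and whose Null level from 13.7 to 3.51 CPM. For glutaredoxin, Glrx, it was -0.55 ± 0.11 (limma-trend, adjusted p = 0.00737). Of the thioredoxin and peroxiredoxin genes, mitochondrial thioredoxin, Txn2, had 0.38 ± 0.11 (limma-trend, adjusted p = 0.0442). The ferrireductase gene Steap3 had -1.49 ± 0.34 (limma-trend, adjusted p = 0.0146), from 0.475 to 1.53 CPM in Null and 5.46 to 5.98 CPM in DKO cells. Of the NADPH oxidase genes Ncf1 had 0.66 ± 0.14 (limma-trend, adjusted p = 0.00806) and Rac2 0.69 ± 0.092 (limma-trend, adjusted p = 0.000359).

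Of the cell type markers, the interaction was called for the macrophage markers Fcgr1 at -1.59 ± 0.11 (limma-trend, adjusted p = 1e-06), Csf1r at 0.59 ± 0.12 (limma-trend, adjusted p = 0.00799) and Spi1 at 0.45 ± 0.11 (limma-trend, adjusted p = 0.0221). It was also called for the scarce fibroblast marker Pdgfrb (limma-trend, adjusted p = 0.0339). For Pdgfra, which had no counts in either control group and passed the count filter through the treated groups alone, the called interaction restates the difference between the treated groups and is not read as a difference in response.

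Leaving out 1 of the 12 libraries at a time ended none of the calls for Slc7a11, Chac1, Glrx, Steap3, Ncf1, Rac2 and Tfeb. It ended that of Me1 without DKO etoposide replicate 1 (adjusted p = 0.0567), that of Sqstm1 without 6 libraries (Null control replicate 2, the 3 Null etoposide libraries and DKO etoposide replicates 1 and 3; adjusted p up to 0.0669) and that of Btrc without 7 (the replicates 2 of both control groups, the 3 Null etoposide libraries and DKO etoposide replicates 2 and 3; up to 0.0994). Txn2 lost its call without 7 libraries (Null control replicates 1 and 2, DKO control replicate 3, the 3 Null etoposide libraries and DKO etoposide replicate 1; up to 0.135) and Abcc1 without 10 of the 12 (not without the replicates 1 of both control groups; up to 0.107), all by limma-trend. The replicate block ended the calls of Sqstm1 (adjusted p = 0.056), Abcc1 (0.102) and Txn2 (0.063), testing without a filter on low counts those of Btrc (0.0847), Abcc1 (0.0731) and Txn2 (0.109), and the edgeR quasi-likelihood test that of Abcc1 (0.0508).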

How the results depend on the processing

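Of 1090 values of the 10 genes under 22 alternatives, 1032 kept direction and call. The DKO control comparison gave 8 genes higher under all alternatives but a minimum log2 change of 1. That minimum left 1 called gene for etoposide in Null cells, 1 in DKO cells, 4 for DKO against Null controls, 5 after etoposide and 0 for the interaction, where the edgeR and DESeq2 tests without it called 1. Leaving out each library gave 5 to 7, 5 to 8, 8 to 8, 8 to 9 and 0 to 1 called genes. Counts over all genes moved by over 1.5 times with the minimum log2 change (from 7148, 7107, 3491, 6080 and 1708 to 2381, 2370, 1365, 2167 and 816), and from 3491 to 2031 for the control comparison fitted on its 2 groups alone. Genes with a called higher response in DKO cells went from 554 to 876 with DESeq2, and leaving out Null control replicate 2 gave 368, while dropping Null etoposide replicate 3 gave 350. Genes lower in DKO control cells went from 1517 to 2290 without DKO control replicate 1. With library size alone that comparison called 1579 genes higher and 2057 lower, against 1974 and 1517 with TMM, and 8 of the 10 genes were higher either way.

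Signs turned only for differences that were not called. Library size alone gave -0.037 for Nfe2l2 between control cells, against 0.047. Over the fits that left out 1 library, that difference ran from -0.022 to 0.098, the Keap1 response of Null cells from -0.11 to 0.024, the Hmox1 interaction from -0.029 to 0.13 and the Txnrd1 interaction from -0.13 to 0.00082. Fth1 after etoposide, DKO against Null, lost its call with library size alone (adjusted p = 0.0706), DESeq2 size factors (0.0526), no filter (0.051) and the block (0.085), over a range of 0.00148 to 0.138 (limma-trend and the other tools). Nfe2l2 in DKO cells lost it with library size alone (0.0524) and on 2 groups (0.0873), and Nqo1 in DKO cells gained one with DESeq2 (0.0119) and on 2 groups (0.0268). The causes were not tested.

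Replicate numbers are shared between groups, but same-numbered libraries did not deviate together (correlations of deviations from -0.54 to 0.39 over 18 pairs, over 0.1 in 1), so they were not treated as pairs. With the replicate block 6, 7, 8, 8 and 1 genes were called, and Fth1 after etoposide was the only one of the 10 genes to change. Depth limits Nqo1 and Slc40a1, with as few as 3 and 11 counts in a library.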
